A study of Homo sapiens with 12 samples.

Results

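Open chromatin far from any annotated gene was examined in HCT116 cells, an established human colorectal cancer line, by ATAC-seq, in which the Tn5 transposase cuts accessible DNA and inserts sequencing adapters. The regions described here lay on chromosomes 1 to 22, overlapped no gene of any type in GENCODE release 44, and were more than 10 kb from every annotated transcription start. Of 30170 regions in the count table, 5168 (17.1%) met this rule. The rule used position alone and no measured value. Far intergenic regions were compared with 13947 regions within 1 kb of a start and with 4754 regions inside a gene but more than 10 kb from every start.

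Every library came from an HCT116 line made stable for an introduced construct, with 3 libraries in each of 4 groups. EV cells carried empty vector. EHF cells were geneticin-resistant clones of cells given the pcDNA3.1-EHF plasmid, and CDX1 cells were transduced with a CDX1 retrovirus and sorted for GFP. EHF+CDX1 cells were CDX1 cells later given the EHF plasmid and selected as geneticin-resistant clones, so that they differed from EV cells in both factors and in a further round of selection. The sample titles abbreviate this group as E-C, and the design text names the pair of factors. How many clones made up each line, and whether the 3 libraries of a line were separate cultures, is not given in the sources used here. P-values therefore measure the spread between these libraries, which may be technical.

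Intergenic open chromatin far from genes is made up mostly of enhancers and of sites bound by CTCF, the factor that anchors chromatin loops, and in epithelial cells many such enhancers hold sites for AP-1. EHF is an epithelial ETS factor that recognises a GGAA core, and CDX1 is an intestinal caudal homeobox factor that recognises an AT-rich core. Intergenic DNA also holds satellite repeats around centromeres and old copies of mitochondrial DNA, and reads in such places can come from many nearly identical copies.

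The reference sequences below are from hg38, plus strand, both end bases included, with every match to 8 searched motifs in capitals. All were read on both strands. The CDX core was searched as TTTATT or as TTTATG, and the ETS core as AGGAAGT or as CGGAAGT. The AP-1 motif was TGANTCA and that of GATA factors AGATAA. For TCF factors the letters were ATCAAAG, and for the nuclear receptor HNF4 they were CAAAGTCCA. The CTCF core was searched as AGGGGGC or as AGATGGC, and TEAD sites as GGAATG. A match is a description of the letters and not a bound site. The first 3 regions are shown because their gain in EHF+CDX1 cells was called with and without the deepest library, as described further on.
chr4:189233876-189234049: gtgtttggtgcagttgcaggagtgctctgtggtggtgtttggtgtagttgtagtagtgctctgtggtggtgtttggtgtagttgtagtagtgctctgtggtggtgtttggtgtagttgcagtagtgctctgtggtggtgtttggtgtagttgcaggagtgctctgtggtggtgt
chr3:161854435-161854654: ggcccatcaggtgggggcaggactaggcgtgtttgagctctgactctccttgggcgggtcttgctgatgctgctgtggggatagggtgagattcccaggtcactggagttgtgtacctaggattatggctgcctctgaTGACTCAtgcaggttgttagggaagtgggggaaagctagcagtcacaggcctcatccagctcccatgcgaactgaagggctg
chr3:168003148-168003343: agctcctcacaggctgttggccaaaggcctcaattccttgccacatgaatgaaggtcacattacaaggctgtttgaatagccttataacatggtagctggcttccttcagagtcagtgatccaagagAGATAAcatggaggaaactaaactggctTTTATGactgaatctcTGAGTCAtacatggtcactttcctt

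The first of these is a short repeating unit and holds no match to the 8 motifs. The other 2 each hold an AP-1 match, and the region at chr3:168003148-168003343 also holds a GATA and a CDX match. The next 3 are the far intergenic regions with the highest fitted change in EHF+CDX1 against EV cells.
chr13:79441749-79441899: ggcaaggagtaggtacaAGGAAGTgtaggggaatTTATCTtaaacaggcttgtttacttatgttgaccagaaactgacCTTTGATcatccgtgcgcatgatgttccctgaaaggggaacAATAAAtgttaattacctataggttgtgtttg
chr13:108154450-108154600: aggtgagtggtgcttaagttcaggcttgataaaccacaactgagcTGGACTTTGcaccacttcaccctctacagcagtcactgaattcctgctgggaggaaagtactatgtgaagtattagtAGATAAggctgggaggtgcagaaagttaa
chr6:120212115-120212265: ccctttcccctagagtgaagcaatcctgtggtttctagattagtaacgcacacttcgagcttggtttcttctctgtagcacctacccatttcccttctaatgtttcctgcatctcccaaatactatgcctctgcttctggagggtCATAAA

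The first holds ETS, GATA, TCF and CDX matches, the second HNF4 and GATA matches, and the third a CDX match at its end. The 3 regions with the lowest fitted change follow.
chr4:169899296-169899454: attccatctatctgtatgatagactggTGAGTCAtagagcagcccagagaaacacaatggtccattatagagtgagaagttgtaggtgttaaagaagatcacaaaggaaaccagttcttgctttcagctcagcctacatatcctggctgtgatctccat
chr17:70864011-70864161: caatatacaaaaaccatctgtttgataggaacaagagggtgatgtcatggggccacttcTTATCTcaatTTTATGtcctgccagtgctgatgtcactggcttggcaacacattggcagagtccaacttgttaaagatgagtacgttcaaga
chr5:181173835-181174005: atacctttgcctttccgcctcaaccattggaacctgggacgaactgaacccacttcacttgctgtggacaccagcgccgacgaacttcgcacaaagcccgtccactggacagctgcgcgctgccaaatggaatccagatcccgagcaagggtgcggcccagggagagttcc

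The first holds an AP-1 match, the second a GATA and a CDX match, and the third no match. The last 3 are among the regions with the highest mean level. They are an AT-rich region near the chromosome 3 centromere with 6 CDX and 2 TCF matches, a region on chromosome 1 with 2 CDX matches, and a satellite repeat of chromosome 5 with an ETS match.
chr3:93470419-93470664: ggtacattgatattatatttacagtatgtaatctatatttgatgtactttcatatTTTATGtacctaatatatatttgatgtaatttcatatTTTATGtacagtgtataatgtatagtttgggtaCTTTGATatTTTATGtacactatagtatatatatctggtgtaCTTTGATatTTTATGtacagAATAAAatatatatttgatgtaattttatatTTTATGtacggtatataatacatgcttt
chr1:215499707-215499859: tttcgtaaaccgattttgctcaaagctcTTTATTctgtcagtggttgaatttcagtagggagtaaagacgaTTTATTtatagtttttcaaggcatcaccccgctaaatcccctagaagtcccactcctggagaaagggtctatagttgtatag
chr5:49615407-49615579: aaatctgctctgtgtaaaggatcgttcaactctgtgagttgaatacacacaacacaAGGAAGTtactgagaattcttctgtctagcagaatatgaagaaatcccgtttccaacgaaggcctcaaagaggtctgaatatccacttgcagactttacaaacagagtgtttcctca

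The libraries differed more than their labels say. Their total counts ranged from 567366 to 2443334, but reads over the exons of the introduced genes and over regions matching mitochondrial DNA took most of them in 11 of the 12. The remaining counts, called usable here, ranged from 148300 to 912672. EHF exons held at most 100 counts in EV and CDX1 libraries and 91907 to 1536042 in libraries of lines given EHF. CDX1 exons held at most 104 counts in EV and EHF libraries and 77147 to 1916479 in libraries of lines given CDX1. EHF+CDX1 replicate 2, called the deepest library here, stood apart. It had the most usable counts and the fewest exon counts of any library from a line given a factor, and the calls were therefore repeated without it. Regions at the starts of the epithelial genes EPCAM, KRT8, KRT18 and KRT19 held 8 to 118, 6 to 78, 0 to 26 and 4 to 34 counts per library. No region lay at the start of CDH1. None lay at the starts of PTPRC and CD3E (blood), PECAM1 and CDH5 (endothelium), COL3A1 (fibroblast) or SYP (neural). COL1A1, a collagen gene of fibroblasts, had 2 regions with 6 to 33 counts per library.

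Far intergenic regions fell into 3 kinds of sequence, a split made after the counts had been seen. In 4395 (85.0%), at least 50% of the 31-base words occurred once in the genome, and these are called unique. In 745 (14.4%) fewer did, and these are called repeated. The other 28 matched mitochondrial DNA over at least 40 bases at 80% identity or more. Sequence with under 50% unique words made up 14.5% of far intergenic regions, 4.96% of regions deep inside genes and 2.24% of regions at starts.

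Most far intergenic regions were narrow, and as a set they held less G and C than regions at starts. Their median width was 150 bp, 3407 (65.9%) were exactly 150 bp and the longest was 449 bp. Of regions at starts 44.98% were 150 bp wide, and of those deep inside genes 70.9%. Median GC content was 47.7%, against 65.6% at starts and 47.7% deep inside genes. The median distance to the nearest start of any kind was 37.9 kb, the median distance to the nearest protein-coding start was 125.8 kb, and the most remote region lay 3603 kb from any start. The 5 regions just inside the distance limit, at 10006 to 10041 bp, had mean levels of 2.19 to 3.90 CPM, and the 5 just outside it, at 9986 to 9999 bp, had 1.33 to 8.64 CPM. CPM here means the counts of a region relative to the size of its library after scaling by the trimmed mean of M values (TMM), and it is not divided by the width of a region.

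The letters of the motifs were not spread evenly between classes. In the central 150 bases the CDX core occurred in 22.5% of far intergenic regions, against 14.1% of all regions and 5.60% of those at starts. AP-1 occurred in 23.2%, 17.1% and 6.04%, and the CTCF core in 8.30%, 11.6% and 14.3%. The ETS core occurred in 7.06% of far intergenic regions, 8.97% of all regions and 11.2% of those at starts. GATA letters were in 8.57% of far intergenic and 5.47% of all regions, and TCF in 4.04% and 2.40%. HNF4 letters were in 1.34% and 0.762%, and TEAD in 16.3% and 10.6%. Far intergenic shares pool unlike sequence, with TEAD in 26.2% of repeated and 14.7% of unique regions, and AP-1 in 5.24% and 26.4%. Regions deep inside genes had the CDX core in 23.9%, near the far intergenic share, but AP-1 in 30.02% and TEAD in 12.4%. These shares follow base composition as well as position, and the difference between classes was not tested.

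Far intergenic regions were not spread evenly along the genome either. Chromosome 2 held the most (602) and chromosome 19, the most gene-dense chromosome, the fewest (8). Per megabase chromosome 13 held the most, at 3.17, and chromosome 19 the fewest, at 0.137. With a gap of at most 100 kb between neighbours, the 5168 regions formed 2764 runs, of which 1659 were single regions and 141 held 5 or more. The longest run, 47 regions on chromosome 9 between 60557407 and 60686992, was of repeated sequence throughout, and its 31-base words had a median of 1116 copies. The next were 39 regions on chromosome 1 from 143184611, all repeated, and 30 each on chromosome 4 from 49091895 and on chromosome 5 from 49547304, of which 24 were repeated in both runs. These runs lie beside centromeres.

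A large part of the counts came from few of these regions. Far intergenic regions other than mitochondrial matches held 46921 to 212305 counts per library. Their share of usable counts was 32.8%, 26.1% and 32.4% in the EV libraries, 27.6%, 19.2% and 23.7% in the EHF libraries, 28.7%, 19.9% and 27.3% in the CDX1 libraries, and 26.2%, 23.3% and 23.8% in the EHF+CDX1 libraries. The group means were 30.4% ± 3.73, 23.5% ± 4.24, 25.3% ± 4.73 and 24.4% ± 1.57 (SD, n = 3 each). EV replicate 2, with the most usable counts of its group, lay below EHF replicate 1, CDX1 replicates 1 and 3 and EHF+CDX1 replicate 1, so the groups overlapped. The difference of EHF+CDX1 from EV was -6.01 percentage points.

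Repeated sequence had the wider range. Unique regions, the highest one left out, held 9.68% to 12.7% of usable counts over the 12 libraries. Repeated regions held 6.97% to 18.7%, highest in EV replicates 1 and 3 and lowest in EHF replicate 2 and CDX1 replicate 2. A single region, chr3:93470419-93470664, held 2.30% to 11.2% of all far intergenic counts. Replicate 2 of each line, EHF+CDX1 included, had the most usable counts in its line and the lowest repeated share. The part of depth in this was not tested.

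**Figure D1:**
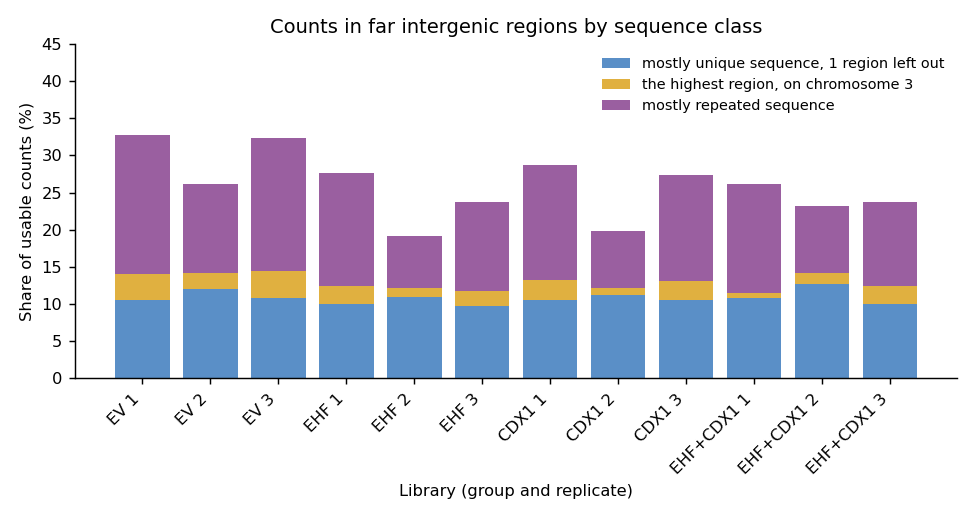
Share of usable counts (percent, vertical axis) that fell in far intergenic regions in each of the 12 libraries (horizontal axis), mitochondrial matches left out. Stacked bars separate unique regions, the single highest region on chromosome 3 and repeated regions. The blue part stays between 9.68% and 12.7%, while the purple repeated part ranges from 6.97% to 18.7%.

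The region with the most counts, chr3:93470419-93470664, lay 373.1 kb from the nearest start, that of RNU6-488P, and had a GC content of 20.7%. It held 7171, 6464 and 5405 counts in the EV libraries, 5649, 5831 and 4681 in EHF, 6246, 3882 and 4227 in CDX1, and 2261, 13461 and 6231 in EHF+CDX1. Its mean level was 6821 ± 2044 CPM in EV and 3185 ± 1921 CPM in EHF+CDX1 cells (SD, n = 3 each), with overlapping libraries and no call (log2 fold change -1.10 ± 0.50 SE, edgeR adjusted p = 0.203). The second, chr1:215499707-215499859, lay 67.4 kb from KCTD3 and held 460 to 2193 counts per library.

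The next 6 in level were all repeated and all near centromeres. They began at 28495428 on chromosome 20, 49615407 and 49643639 on chromosome 5, 53986973 on chromosome 11, 38276272 on chromosome 16 and 20561847 on chromosome 18, and their 31-base words had medians of 822.5 to 6301 copies. At chr5:49615407-49615579, for example, the EV libraries held 1059, 872 and 762 counts, the EHF libraries 1055, 868 and 783, the CDX1 libraries 967, 781 and 666, and the EHF+CDX1 libraries 1125, 2033 and 748. None of these 8 highest regions was called in any comparison. Of the 28 mitochondrial matches, which had a median of 249.9 CPM, 1 stood higher than all 8. This region, chr7:145997301-145997453, 118.5 kb from CNTNAP2, held 6342 to 14026 counts per library. Over all regions of the table mitochondrial matches took 65.0% to 73.8% of all counts in EV and 14.5% to 37.2% in the other lines. All counts include those over the introduced genes, which lower this share in lines given a factor. The 28 matches held 20656, 39980 and 24505 counts in EV libraries and 25360, 36278 and 18658 in EHF+CDX1 libraries.

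Outside the repeats most far intergenic regions were thinly covered. The median unique region held 1 to 8 counts in 11 libraries and 20 in EHF+CDX1 replicate 2. Between 13.7% and 31.7% of unique regions were at 0 counts in each EV, EHF or CDX1 library, against 3.003%, 0.114% and 9.51% in EHF+CDX1 replicates 1, 2 and 3. A level of at least 3 CPM in at least 1 library was needed to enter the test, and 5166 of the 5168 regions met it. For this minimum alone, CPM was taken over the total counts of a library, without TMM scaling. Those totals include exon and mitochondrial counts, so the minimum stood at a different TMM-scaled level in each library. Of all far intergenic regions, 743 (14.4%) met it in EHF+CDX1 replicate 2 and in no other library, while each other library had at most 1 such region. The same share was 14.8% deep inside genes and 1.70% at starts. With the regions that met it in several EHF+CDX1 libraries and in no other line, 1029 far intergenic regions (19.9%) entered through EHF+CDX1 libraries alone, against 10.8% of all regions. Such entry selects for regions that are higher in EHF+CDX1 cells. Values over the other 4137, a split made after seeing the data, are therefore given beside those over all where available.

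The comparison of EHF+CDX1 with EV cells asks what both factors together did to remote open chromatin. The regions called higher were mostly narrow, thinly covered regions absent or nearly absent from EV libraries, whereas those called lower were mostly wider regions that EV libraries covered. In these data more cells with a region open and a wider opening in each cell cannot be told apart. Of 5166 far intergenic regions tested, 218 (4.22%) were called at an edgeR adjusted p under 0.05, against 2.57% of all regions. Of these, 168 were higher in EHF+CDX1 cells (3.25%, against 1.79% of all regions) and 50 were lower (0.968%, against 0.779%). At an unadjusted p under 0.05 there were 1418 of the 5166, against 5733 of all 30154 regions tested. Of the 168, 100 had entered through EHF+CDX1 libraries alone, which left 68 higher (1.64%) and 50 lower (1.21%) among the 4137, against 0.937% and 0.874% of all regions that entered through another line. The number of calls and the balance of directions also depended on the tool, with 13 higher and 7 lower by DESeq2, 1 and 1 by limma on the deposited log2 CPM, and near equal numbers with the replicate number as a block, as given further on. At starts there were 130 higher and 60 lower calls, and regions deep inside genes 121 and 51. Among the latter 3.62% were called, so a call rate above the background was shared with other regions remote from starts. The median fitted log2 fold change was 0.21 over far intergenic regions and 0.18 over all regions, and -0.13 and 0.05 over those that entered through another line.

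By kind of sequence, unique regions gave 144 higher and 35 lower calls, repeated regions 24 and 10, and mitochondrial matches 0 and 5. The part of the lower mitochondrial share of all counts in those 5 was not tested. Of the 216 called regions with at least 20 counts over the 6 libraries, 199 had no overlap between the groups, 156 of them higher and 43 lower. No overlap was seen in 26.0% of all far intergenic regions tested and in 22.0% of all regions of the table.

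The 168 gains and the 50 losses differed in kind. Of the 168, 144 were exactly 150 bp wide, in 156 no EV library held more than 3 counts, and in 64 none held any. Their median counts in EHF+CDX1 replicates 1, 2 and 3 were 9.5, 50 and 4, and replicate 2 had the highest CPM of the 3 in 144. Of the 50 losses, 43 were wider than 150 bp, their EV libraries held a median of 39.5 counts in sum, and replicate 2 was highest in 13. The gains thus had most of their counts in the deepest library and few in EV libraries, while the losses had counts in both groups.

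**Figure D2:**
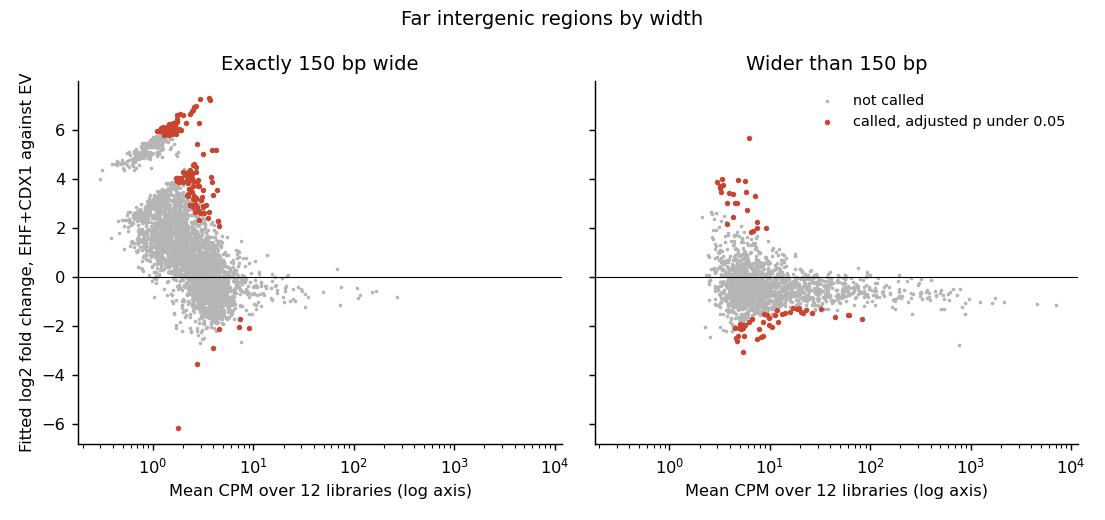
Fitted log2 fold change of EHF+CDX1 against EV (vertical axis) by mean CPM over the 12 libraries (horizontal log axis) for each far intergenic region tested, for regions of exactly 150 bp (left) and wider ones (right). Red points are called and grey ones are not. The left panel holds 144 higher and 7 lower calls and the right panel 24 higher and 43 lower.

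Narrow and wide regions also differed in their medians. Among the 4137 regions that entered through another line, the 2380 of 150 bp had a median log2 fold change of 0.30, with 47 higher and 7 lower calls, and the 1757 wider ones -0.49, with 21 higher and 43 lower. Without the deepest library the medians were 0.0029 and -0.43, so the median of narrow regions was near 0 and that of wide ones was still negative. Over all regions tested the medians were 0.995 and -0.49.

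Leaving out a library changed the number of calls. Leaving out the deepest library left 13, EV replicate 2 left 41, and EV replicates 1 and 3 left 86 each. All 13 were among the 218. Of the 168 gains 150 could still be tested without the deepest library, the median change over far intergenic regions was then -0.14, and all 150 remained positive, as all 50 losses remained negative. The sign was partly fixed by choosing regions on the same other libraries.

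**Figure D3:**
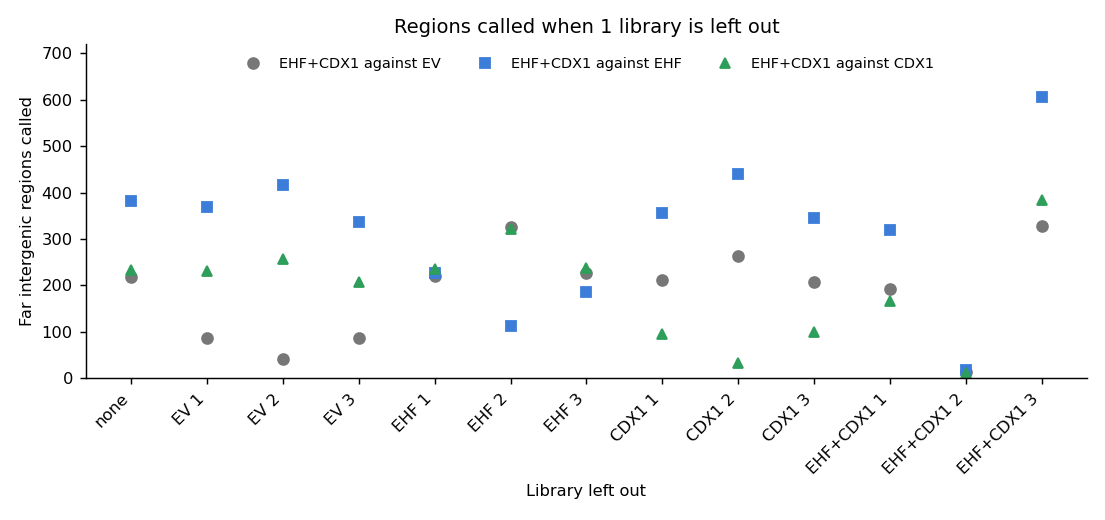
Number of far intergenic regions called (vertical axis) with all 12 libraries and with each library left out in turn (horizontal axis), for EHF+CDX1 against EV (circles), EHF (squares) and CDX1 (triangles) cells. Without the deepest library the counts fall to 13, 19 and 12, and without EHF+CDX1 replicate 3 they rise to 327, 605 and 384.

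The 13 regions called both with and without the deepest library, chosen after their values were seen, comprised 10 gains and 3 losses. The most stable was chr4:189233876-189234049, a tandem repeat near the end of chromosome 4, 40.8 kb from the start of ENSG00000251310 and 706.8 kb from FRG1. EV libraries held 0, 1 and 0 counts, EHF libraries 3, 2 and 1, CDX1 libraries 5, 2 and 2, and EHF+CDX1 libraries 53, 76 and 16. All 3 EHF+CDX1 libraries lay above all 9 others. Mean levels were 0.230 ± 0.399, 1.49 ± 1.09, 2.71 ± 1.95 and 20.6 ± 9.57 CPM (SD, n = 3 each). The fitted log2 fold change against EV was 5.67 ± 0.80 (SE, edgeR adjusted p = 1.5e-07), and the region was called in each of the 23 alternative analyses. Its 31-base words had a median of 7 copies in hg38 and none of them was unique.

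A second repeated region lay 1 kb further, at chr4:189235084-189235234, and was the 1 of the 13 that had entered through EHF+CDX1 libraries alone. It held no counts in EV or CDX1 libraries, 0, 2 and 0 in EHF libraries, and 27, 20 and 3 in EHF+CDX1 libraries. Against the level that 3 counts per library would give in EV, the EHF+CDX1 mean was at least 2.33-fold higher (edgeR adjusted p = 0.00723). The 2 regions may share reads of the same repeat and do not count as independent gains.

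Unique sequence gave the clearest gains on chromosome 3. At chr3:161854435-161854654, 32.5 kb from ENSG00000240354 and 357.6 kb from OTOL1, which encodes an inner-ear collagen-like protein, the counts were 2, 4 and 1 in EV, 4, 2 and 4 in EHF, 0, 6 and 0 in CDX1, and 52, 110 and 16 in EHF+CDX1 libraries. The mean rose 10.7-fold, from 2.15 ± 0.631 to 23.0 ± 8.93 CPM (SD, n = 3 each), and the log2 fold change was 3.31 ± 0.56 (SE, edgeR adjusted p = 3.5e-05). EHF and CDX1 cells were at 2.71 ± 1.64 and 0.965 ± 1.67 CPM, and all of their libraries lay below all 3 EHF+CDX1 libraries.

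Further along the chromosome, chr3:168003148-168003343 lay 41.5 kb from GOLIM4, which encodes a Golgi membrane protein. Its counts were 0, 4 and 1 in EV, 3, 5 and 3 in EHF, 1, 0 and 1 in CDX1, and 29, 92 and 21 in EHF+CDX1 libraries. The level rose 12.99-fold, from 1.42 ± 1.38 to 18.5 ± 1.99 CPM (SD, n = 3 each; log2 fold change 3.46 ± 0.61 SE, edgeR adjusted p = 8.75e-05). The 3 EHF+CDX1 libraries agreed closely once scaled, although replicate 2 held over 3 times the counts of either other.

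On chromosome 2, chr2:195330716-195330887 was 245.1 kb from SLC39A10, a zinc transporter gene, and holds the CDX core. It held 2, 1 and 0 counts in EV, 1, 1 and 2 in EHF, 4, 6 and 5 in CDX1, and 31, 69 and 18 in EHF+CDX1 libraries. The level was 0.962 ± 1.12 CPM in EV, 4.22 ± 1.54 in CDX1 and 16.3 ± 1.84 in EHF+CDX1 cells (SD, n = 3 each). Against EV the log2 fold change was 3.93 ± 0.68 (SE, edgeR adjusted p = 5.94e-05).

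The other 5 gains lay on chromosomes 20, 6, 5 and 15. At chr20:28644535-28644710, a repeated region by the chromosome 20 centromere, the libraries held 4, 5 and 2 counts in EV and 52, 51 and 13 in EHF+CDX1, 4.90-fold higher (edgeR adjusted p = 0.00658). Regions at chr6:120212115-120212265, chr5:27907113-27907263 and chr15:96694169-96694319 held no counts in EV and were at least 3.30-fold, 2.57-fold and 1.90-fold higher (edgeR adjusted p = 3.24e-05, 0.00162 and 0.00725). The chromosome 15 region, 361.0 kb from NR2F2, a nuclear receptor gene, had 15, 18 and 7 counts in EHF+CDX1 libraries. At chr5:2146421-2146571 the libraries held 0, 1 and 1 counts in EV, 7, 2 and 4 in CDX1, and 32, 9 and 8 in EHF+CDX1, and this region was called in 15 of the 23 alternatives, the fewest of the 13.

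All 3 losses were in unique sequence. At chr10:118423887-118424077, 81.6 kb from FAM204A, the counts were 14, 23 and 11 in EV, 9, 25 and 12 in EHF, 10, 17 and 10 in CDX1, and 4, 22 and 5 in EHF+CDX1 libraries. Its level fell from 15.9 ± 0.587 to 3.83 ± 1.32 CPM (SD, n = 3 each), and the log2 fold change was -1.96 ± 0.45 (SE, edgeR adjusted p = 0.00576). At chr8:134892632-134892846, 179.6 kb from ZFAT, a zinc-finger gene, the level fell from 17.2 ± 6.65 to 3.99 ± 1.30 CPM (edgeR adjusted p = 0.00251). The third, chr9:2261057-2261211, lay 79.5 kb from SMARCA2, the ATPase of a chromatin remodelling complex. It held 14, 15 and 8 counts in EV and 2, 15 and 1 in EHF+CDX1 libraries, 0.143 of the EV level (edgeR adjusted p = 0.00658).

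**Figure D4:**
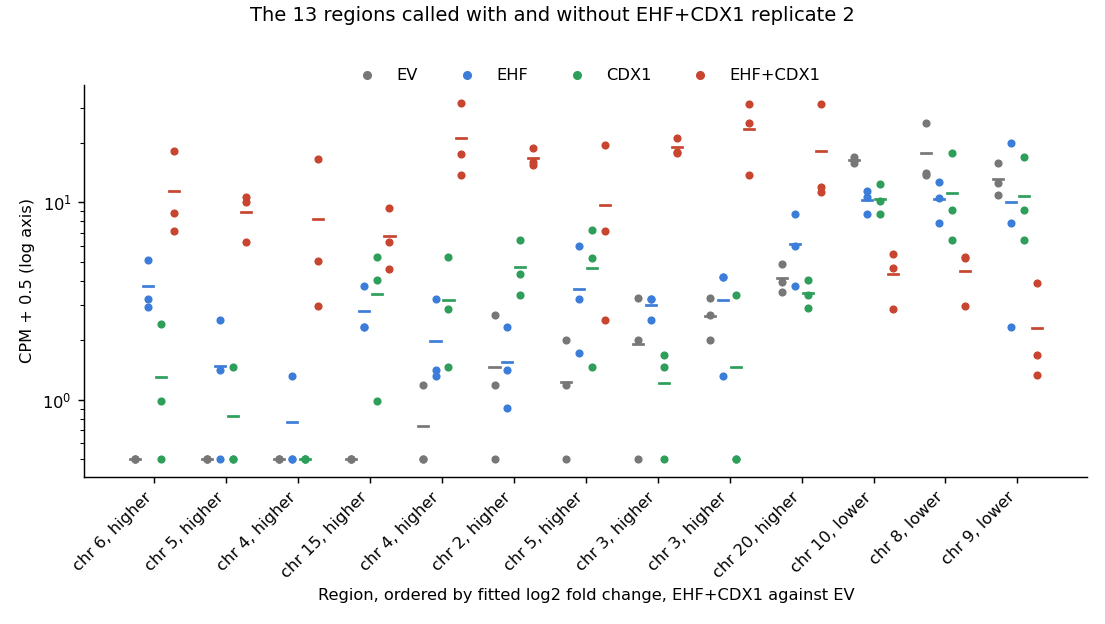
Level of each of the 13 regions called with and without the deepest library (CPM plus 0.5, vertical log axis) in EV (grey), EHF (blue), CDX1 (green) and EHF+CDX1 (red) libraries. Points are libraries, short lines are group means, and regions are ordered from the highest to the lowest fitted change. In the 10 gains the 3 red points lie above the grey ones, and in the 3 losses below them.

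By the rule for naming the largest changes, 10 gains with at least 20 counts and no overlap all held 0 counts in the 3 EV libraries. Most of them, the largest included, had entered the test through EHF+CDX1 libraries alone. Such entry selects for a gain, so their p-values are no separate support for one. The largest fitted change was at chr13:79441749-79441899, 35.3 kb from RBM26, an RNA-binding protein gene. EHF libraries held 2, 4 and 1 counts there, CDX1 libraries 2, 1 and 2, and EHF+CDX1 libraries 15, 98 and 4, at least 3.48-fold above EV (edgeR adjusted p = 2.29e-05). Replicate 2 held most of these counts, and the adjusted p was 0.0615 without it. Of the 10 gains, 3 were still called without that library, and the 7 others had edgeR adjusted p-values of 0.0615 to 0.255.

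At chr13:108154450-108154600, 60.6 kb from LIG4, the DNA ligase of end joining, the EHF+CDX1 libraries held 13, 99 and 4 counts, the EHF libraries 1, 0 and 1, and the others 0, at least 3.38-fold higher than EV (edgeR adjusted p = 0.000128, or 0.116 without the deepest library). The third, chr6:120212115-120212265, is 1 of the 13 above, with 5, 6 and 3 counts in EHF libraries and 14, 78 and 8 in EHF+CDX1 libraries. The remaining 7 lay on chromosomes 9, 3, 7, 5, 8, 4 and 6 and were at least 2.11-fold to 2.83-fold higher. They include chr7:82508177-82508327, 64.2 kb from CACNA2D1, a calcium channel subunit gene, with 17, 52 and 4 counts in EHF+CDX1 libraries. The smallest bound was at chr6:66987062-66987212, where the EHF+CDX1 libraries held 7, 63 and 3 counts and the 9 others none. Of these 10, 5 were repeated, among them the first.

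The 10 lowest were covered in every EV library. Of these, chr9:2261057-2261211 alone was still called without the deepest library, and the 9 others had edgeR adjusted p-values of 0.0541 to 0.296. At chr4:169899296-169899454, 104.3 kb from MFAP3L, the counts were 6, 7 and 6 in EV, 5, 35 and 7 in EHF, 4, 20 and 3 in CDX1, and 1, 2 and 2 in EHF+CDX1 libraries. The 3 EHF+CDX1 libraries lay below all 9 others, at 0.132 of the EV level (log2 fold change -3.05 ± 0.73 SE, edgeR adjusted p = 0.00862). It also had the lowest fitted change against EHF and against CDX1 cells, at 0.107 and 0.159 of their levels (edgeR adjusted p = 0.000144 and 0.00545).

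At chr17:70864011-70864161, 694.5 kb from KCNJ2, EV libraries held 3, 10 and 6 counts and EHF+CDX1 libraries 1, 5 and 0, 0.0896 of the EV level (edgeR adjusted p = 0.019). At chr5:181173835-181174005, 24.8 kb from TRIM7, a ubiquitin ligase gene, they held 10, 6 and 3 against 3, 3 and 1 (0.168 of the level, edgeR adjusted p = 0.0253). The other 7 had log2 fold changes of -2.54 to -2.14, and these were chr2:133818284-133818441, chr7:98822648-98822859, chr4:166580429-166580594, chr9:2261057-2261211, chr10:127524351-127524521, chr10:26873248-26873401 and chr5:57383197-57383443. The region at chr2:133818284-133818441 also holds an AP-1 match and fell from 11.7 ± 5.78 to 1.81 ± 1.58 CPM (SD, n = 3 each; edgeR adjusted p = 0.00862). The region at chr10:26873248-26873401, 12.2 kb from ABI1, matched mitochondrial DNA over 141 bases.

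Medians differed by chromosome, and on chromosomes 13 and 10 those of starts had the same sign. Chromosome 13 held 32 of the 168 gains, chromosome 2 held 26, chromosome 3 held 24 and chromosome 7 held 17, and chromosome 10 held 10 of the 50 losses. On chromosome 13, 30 of 347 unique regions (8.65%) were higher and 0 lower, with a median log2 fold change of 1.72. The median was 0.39 without the deepest library. Over regions at chromosome 13 starts it was 0.57, or 0.39 without that library, when starts on chromosome 20 were highest at 0.48. Among the 211 of these 347 that entered through another line, 14 were higher (6.64%) and 0 lower, with a median of 0.88, or 0.18 without the deepest library. Chromosomes 12, 2, 3 and 7 followed at 0.94, 0.73, 0.72 and 0.56, but at 0.20, 0.09, 0.09 and 0.04 without the deepest library. Over their regions that entered through another line the medians were 0.37, 0.31, 0.07 and 0.21. The lowest medians were on chromosomes 10, 15 and 16, at -0.68, -0.62 and -0.60, or -0.68, -0.49 and -0.46 without the deepest library. On chromosome 10 the median was -0.72 over the 196 regions that entered through another line, and -0.34 over starts, or -0.20 over starts without the deepest library.

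Shares of counts set the EHF+CDX1 libraries apart on some of these chromosomes. Unique regions of chromosome 13, the highest region of the genome left out, held 2.58% to 3.97% of unique far intergenic counts in the EV, EHF and CDX1 libraries, and 4.52%, 9.20% and 4.37% in EHF+CDX1 replicates 1, 2 and 3. Chromosome 10 held 6.78% to 8.25% in the 9 other libraries against 6.74%, 4.55% and 6.001% in EHF+CDX1, and chromosome 2 held 8.91% to 10.2% against 11.7%, 13.2% and 10.8%. Chromosome 15 held 1.18% to 1.33% against 0.812% to 1.05%. Starts on chromosomes 13 and 10 moved the same way. Chromosome 13 starts held 2.17% to 2.40% of start counts in the 9 other libraries against 2.62%, 3.89% and 2.64%, and chromosome 10 starts 4.26% to 4.76% against 3.37%, 3.06% and 3.67%. On all these measures the 3 EHF+CDX1 libraries lay outside the range of the 9 others. On chromosomes 12, 3, 7 and 16 their shares of unique far intergenic counts overlapped that range, with 2.90% to 3.67% against 2.66% to 3.20% on chromosome 12, 9.45% to 10.19% against 8.63% to 10.49% on 3, 5.35% to 6.21% against 4.63% to 5.59% on 7, and 1.96% to 4.64% against 2.91% to 5.25% on 16. Start shares also lay outside the range of the 9 others on chromosomes 2 (8.16% to 9.97% against 7.34% to 7.93%) and 12 (4.72% to 4.94% against 4.19% to 4.63%). The same held on 3 (7.37% to 7.58% against 6.67% to 7.30%) and 16 (2.29% to 2.88% against 3.275% to 3.52%). They overlapped on 7 (6.915% to 7.585% against 6.31% to 7.22%) and 15 (1.85% to 2.22% against 2.15% to 2.38%). The shares include regions that entered through EHF+CDX1 libraries alone.

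The differences followed stretches within chromosomes. The window medians below are over all unique regions tested, including those that entered through EHF+CDX1 libraries alone. On chromosome 10 the median log2 fold change of unique far intergenic regions was -0.12, -0.24, 0.09 and 0.69 in the 20-megabase windows from 0, 20, 40 and 60 Mb, and -0.92, -1.03 and -1.04 in those from 80, 100 and 120 Mb. Without the deepest library the last 3 were -0.98, -1.02 and -1.11. Starts in those windows had -0.29, -0.55 and -0.65. On chromosome 3 the windows from 0, 20 and 40 Mb had -0.48, -0.51 and -0.61, and those from 80, 100, 140, 160 and 180 Mb had 2.12, 1.59, 1.39, 1.35 and 0.62, while the window from 120 Mb had -0.15. These 5 windows fell, without the deepest library, to 0.12, 0.79, 0.32, 1.15 and 0.22, and their starts had 0.37, 0.76, 0.78, 0.65 and 0.50 with all libraries. Chromosome 13 was positive in every window, from 0.63 to 2.46, and from -0.13 to 0.66 without the deepest library. Both unique chromosome 3 regions described above lie in the window from 160 Mb.

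DNA copy number of the lines was not measured here, and more copies of a stretch and wider opening along it cannot be told apart in these counts. With a separate scaling of every chromosome, chosen after seeing the data, 191 far intergenic regions were called, 133 higher and 58 lower. Unique gains on chromosome 13 then numbered 10 in place of 30, and unique losses on chromosome 10 were 0 in place of 8. Of the 218 regions called before, 154 were called under this scaling.

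**Figure D5:**
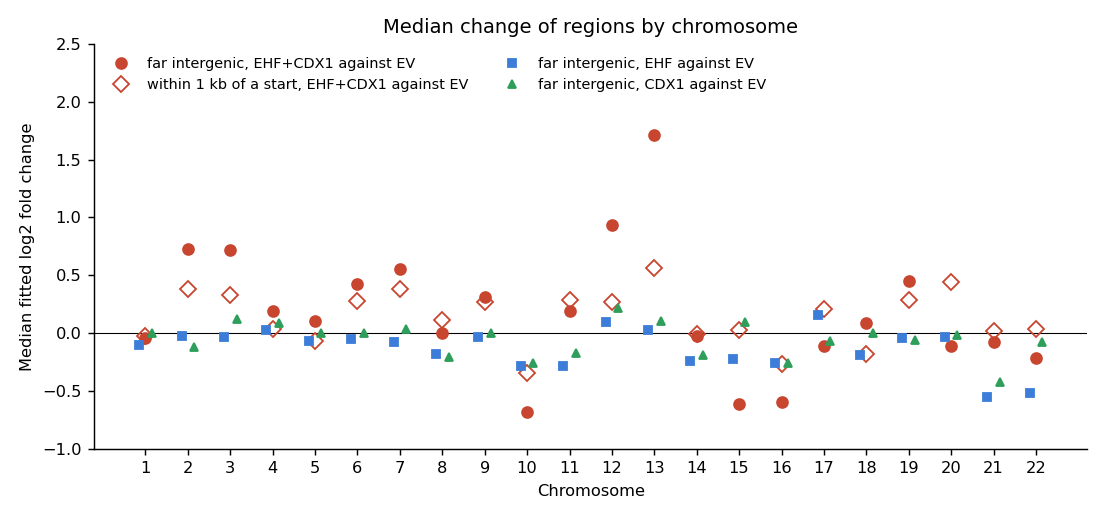
Median fitted log2 fold change (vertical axis) of unique far intergenic regions on each chromosome (horizontal axis) for EHF+CDX1 against EV (filled circles), EHF against EV (squares) and CDX1 against EV (triangles), with the median of regions within 1 kb of a start for EHF+CDX1 against EV (open diamonds). Chromosome 13 is highest at 1.72 and chromosome 10 lowest at -0.68, and the starts are also highest on 13 (0.57) and lowest on 10 (-0.34). Without the deepest library, not drawn, the start medians were 0.39 on 13 and -0.20 on 10, and the highest was 0.48 on 20. Regions that entered through EHF+CDX1 libraries alone are included.

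The share of gains differed by distance from genes. Among unique regions that entered through another line, 12 of 1050 at 10 to 20 kb from a start were higher and 12 lower, from 20 to 50 kb 18 and 9 of 1270, from 50 to 100 kb 15 and 8 of 707, and beyond 100 kb 14 and 6 of 462. The share of gains was 1.14%, 1.42%, 2.12% and 3.03% in this order, and the median log2 fold change -0.10, -0.10, 0.02 and 0.09. With the deepest library left out the medians were -0.19, -0.26, -0.19 and -0.09, all below 0, and 0, 4, 2 and 3 regions were called. Median EV level was 3.94, 3.85, 3.75 and 3.19 CPM and median GC content 51.5%, 49.7%, 47.02% and 45.7% along the same order, and their part in these shares was not tested.

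The letters of motifs were counted in gains and losses among the unique regions that entered through another line. The CDX core occurred in 17 of 59 gains (28.8%), 4 of 35 losses (11.4%) and 19.2% of all 3489. Among those of 150 bp it was in 11 of 43 gains (25.6%) and 22.2% of all 2144. The ETS core occurred in 10.2% of gains and 5.71% of losses, against 7.11% of all, and AP-1 in 30.5% and 31.4%, against 27.5%. The CTCF core was in 0 gains and 2 losses (5.71%), against 10.98%. Gains had a median GC content of 46.4%, losses 51.5% and all of these regions 49.01%. None of these shares was tested, and 9 of these regions were called without the deepest library.

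Seen from the motif, the 670 regions with the CDX core had a median log2 fold change of 0.31, against -0.12 for the 2819 without it. The medians were 0.01 and -0.25 without the deepest library. Regions with the CDX core had a median EV level of 2.80 CPM and those without it 4.08 CPM. The 383 regions with the CTCF core had -0.21, or -0.40 without that library, and 0 were higher and 2 lower. HNF4 letters, the site of a liver and gut nuclear receptor, were in 30 regions with a median of 1.16, or 0.62 without that library. Over all unique regions tested the CDX core was in 48 of 144 gains (33.3%) and in 23.5% of regions, which include those that entered through EHF+CDX1 libraries alone.

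EHF+CDX1 cells were then compared with EHF cells, which lacked introduced CDX1. EHF+CDX1 cells were made from CDX1 cells and not from EHF cells. These lines therefore also differed in origin, transduction, sorting and clones. Of far intergenic regions 381 (7.38%) were called, against 4.35% of all regions and 7.20% of those deep inside genes. There were 347 gains (6.72%, against 3.65%) and 34 losses (0.658%, against 0.700%). Of the gains 205 had entered through EHF+CDX1 libraries alone. That left 142 higher (3.43%) and 34 lower (0.822%) among the 4137, against 1.83% and 0.785% of all regions that entered through another line. The gains again were thin, with 323 of 150 bp and 309 at no more than 3 counts in every EHF library. Leaving out the deepest library left 19 calls, EHF replicates 1, 2 and 3 left 227, 112 and 185, and EHF+CDX1 replicate 3 gave 605.

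The largest gain was chr6:61322946-61323119, a repeated region 82.0 kb from ENSG00000220030. It held no count in any EHF or CDX1 library, 2, 0 and 1 in EV libraries and 29, 55 and 7 in EHF+CDX1 libraries, at least 5.29-fold higher than EHF (edgeR adjusted p = 1.95e-06). Without the deepest library the adjusted p was 0.00035. It was followed by chr3:89747624-89747774, chr7:112572828-112572978, chr2:192488218-192488368 and chr11:50633301-50633451, all at 0 in EHF libraries and at least 3.70-fold to 4.34-fold higher. All 5 were still called without the deepest library. Those on chromosomes 7, 2 and 11 had entered through EHF+CDX1 libraries alone, which selects for a gain. The largest losses after chr4:169899296-169899454 were chr11:131033198-131033348, chr4:35021341-35021491, chr16:8173184-8173334 and chr14:89040460-89040610, and none of the 5 was called without it (edgeR adjusted p = 0.0572 to 0.369). At chr11:131033198-131033348, 116.7 kb from SNX19, the EHF libraries held 4, 11 and 4 counts and the EHF+CDX1 libraries 1, 1 and 0.

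CDX1 cells were the line from which EHF+CDX1 cells were made, so the lines differed in EHF and in the selection of clones. Against CDX1 cells, 234 far intergenic regions (4.53%) were called, against 2.60% of all regions and 4.27% of those deep inside genes. There were 202 gains (3.91%, against 2.06%) and 32 losses (0.619%, against 0.541%). Of the gains 115 had entered through EHF+CDX1 libraries alone. That left 87 higher (2.10%) and 32 lower (0.774%) among the 4137, against 1.09% and 0.606% of all regions that entered through another line. Of the gains 177 were of 150 bp. Leaving out the deepest library left 12 calls, CDX1 replicates 1, 2 and 3 left 96, 34 and 100, and EHF+CDX1 replicate 3 gave 384. The largest gains were chr13:108154450-108154600, chr6:61322946-61323119, chr2:142323349-142323499, chr2:180034289-180034439 and chr4:189235084-189235234, all at 0 in CDX1 libraries and at least 2.92-fold to 4.50-fold higher. The first and the third were no longer called without the deepest library (edgeR adjusted p = 0.0925 and 0.124). The first, the third and the fifth had entered through EHF+CDX1 libraries alone, which selects for a gain. At chr2:180034289-180034439, 27.0 kb from CWC22, a splicing factor gene, the EHF+CDX1 libraries held 12, 53 and 9 counts, the EV libraries 0, 2 and 2, and the EHF libraries 1, 2 and 2.

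The largest losses against CDX1 cells were chr4:169899296-169899454, chr17:70864011-70864161, chr5:181173835-181174005, chr1:188489410-188489594 and chr1:36650533-36650683, and none of the 5 was called without the deepest library (edgeR adjusted p = 0.178 to 0.399). At chr1:188489410-188489594, in the gene-poor stretch beyond PLA2G4A, CDX1 libraries held 6, 16 and 5 counts and EHF+CDX1 libraries 0, 7 and 2 (edgeR adjusted p = 0.0378). The 3 comparisons of EHF+CDX1 cells share the same EHF+CDX1 libraries, so a region named in several of them is not a repeated finding.

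No far intergenic region was called for either factor alone with all 12 libraries and no block. In EHF against EV cells 0 were called by edgeR, against 0.00995% of all regions, and DESeq2 and limma voom called 0. An unadjusted p under 0.05 was found in 387 of 5166 far intergenic regions and in 1496 of all 30154 regions tested. Leaving out EHF replicate 1 gave 1 call and leaving out EHF replicate 2 gave 3, and some were called lower with the replicate number as a block, as given further on. In CDX1 against EV cells 0 were called, against 0% of all regions, and again 0 by DESeq2 and limma voom. There an unadjusted p under 0.05 was found in 251 far intergenic regions and in 1150 of all regions tested. The median log2 fold change of unique regions was -0.09 in EHF and -0.03 in CDX1 cells, and that of repeated regions -0.59 and -0.43. Medians of unique regions by chromosome lay between -0.55 and 0.15 in EHF cells and between -0.42 and 0.22 in CDX1 cells. Chromosomes 13 and 10, at the ends of the range in EHF+CDX1 cells, had 0.03 and -0.28 in EHF cells and 0.11 and -0.26 in CDX1 cells.

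An interaction term asked whether both factors together differed from the 2 single changes added on the log2 scale. At an unadjusted p under 0.05 there were 702 of 5166 far intergenic regions, against 2978 of all 30154 regions tested. The term was called in 7 far intergenic regions (0.136%), against 0.123% of all regions. In 6 it was positive. At chr6:61322946-61323119, described above, single lines were at 0. At chr2:84104225-84104393, 322.5 kb from SUCLG1, a gene of the citric acid cycle, the counts were 2, 3 and 1 in EV, 0, 0 and 1 in EHF, 2, 2 and 0 in CDX1, and 18, 133 and 5 in EHF+CDX1 libraries (interaction 6.70 ± 1.43 SE on the log2 scale, edgeR adjusted p = 0.0145). At chr7:121714708-121714858 the EV libraries held 1, 6 and 2 counts, the EHF libraries 0, 0 and 1, the CDX1 libraries 5, 3 and 4, and the EHF+CDX1 libraries 12, 89 and 9 (interaction 5.25 ± 1.23 SE, edgeR adjusted p = 0.0413). In these 3 regions every EHF library held at most 1 count. Leaving out the deepest library left none of the 7 called.

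The region with a negative interaction had counts in every library. At chr17:71473296-71473461, in the gene desert of SOX9, an intestinal crypt transcription factor gene whose start was 647.6 kb away, EV libraries held 6, 6 and 4 counts, EHF libraries 7, 29 and 8, CDX1 libraries 18, 23 and 8, and EHF+CDX1 libraries 3, 10 and 5. The levels were 5.58 ± 1.28, 8.5 ± 2.88, 12.6 ± 4.14 and 2.73 ± 1.25 CPM (SD, n = 3 each). EHF+CDX1 cells were lower than EHF and CDX1 cells (log2 fold changes -1.78 and -2.28, edgeR adjusted p = 0.0249 and 0.0034, or 0.254 and 0.123 without the deepest library), while the difference from EV did not pass (-1.07, edgeR adjusted p = 0.315). The interaction was -2.995 ± 0.73 (SE, edgeR adjusted p = 0.0487).

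Far intergenic regions were also grouped by the nearest protein-coding start, which names a neighbour and not a target. The median changes of the gene lists are over all regions tested, including any that entered through EHF+CDX1 libraries alone. Medians over the other regions of a list are not given here. None of the regions near listed genes that were called against EV, EHF or CDX1 cells was called without the deepest library (edgeR adjusted p = 0.123 to 0.742). Of 12 intestinal marker genes, 3 were the nearest coding gene of 15 far intergenic regions, and 1 of the 15 was higher and 0 lower in EHF+CDX1 against EV cells, with a median log2 fold change of 1.22. The region that was higher, chr3:164219621-164219771, lay 856.2 kb from SI, the sucrase-isomaltase gene of enterocytes, and held 1, 0 and 0 counts in EV, 0, 5 and 1 in EHF, 0, 1 and 1 in CDX1, and 9, 56 and 10 in EHF+CDX1 libraries (edgeR adjusted p = 0.00499, or 0.149 without the deepest library). It was also higher than in EHF and CDX1 cells (edgeR adjusted p = 0.00981 and 0.00313). The SI region with the highest level, chr3:163940128-163940280, held 5, 3 and 1 counts in EV and 7, 33 and 8 in EHF+CDX1 libraries (edgeR adjusted p = 0.351).

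KRT20, a keratin of differentiated colonic cells, was nearest to 3 regions at 16.9 to 19.5 kb. At chr17:40902110-40902260 the CDX1 libraries held 0, EV libraries 2, 3 and 0, EHF libraries 0, 0 and 2, and EHF+CDX1 libraries 3, 22 and 6, and the region was called against CDX1 (edgeR adjusted p = 0.0408) but not against EV (edgeR adjusted p = 0.525). CDH17, the liver-intestine cadherin, had 4 regions, none called. The highest, chr8:94120039-94120245, was open in every line. EV cells had 14.8 ± 2.41 CPM, EHF cells 19.9 ± 3.81, CDX1 cells 17.4 ± 4.59 and EHF+CDX1 cells 9.80 ± 4.01 (SD, n = 3 each).

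Of 16 intestinal transcription factor genes, 8 were nearest to 28 far intergenic regions, and 1 was higher and 0 lower against EV (median log2 fold change 1.27). That region, chr11:34600678-34600828, lay 20.3 kb from the start of EHF itself. It held 0, 4 and 0 counts in EV, 4, 8 and 3 in EHF, 1, 1 and 2 in CDX1, and 12, 56 and 3 in EHF+CDX1 libraries, with a log2 fold change of 2.61 ± 0.76 (SE, edgeR adjusted p = 0.0389). Without the deepest library, which held 56 of these counts, it was 1.94 and not called (edgeR adjusted p = 0.404). A second EHF region, chr11:34685353-34685516, had 5.77 ± 1.11 CPM in EV and 5.07 ± 3.74 in EHF+CDX1 cells (SD, n = 3 each, edgeR adjusted p = 0.79), and its difference changed sign without EHF+CDX1 replicate 1. Both lie outside the exons of the introduced copy.

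KLF5, an intestinal Krüppel-like factor, had 7 regions. The highest, chr13:73090517-73090747, 15.5 kb from its start and holding ETS, AP-1 and TCF matches, had 5.91 ± 2.28 CPM in EV cells. EHF cells had 11.4 ± 3.51, CDX1 cells 12.5 ± 2.99 and EHF+CDX1 cells 13.3 ± 1.76 CPM (SD, n = 3 each). EHF+CDX1 libraries did not pass against EV (log2 fold change 1.18 ± 0.45 SE, edgeR adjusted p = 0.127). At chr9:107755330-107755534, 264.8 kb from KLF4, the level was 4.39 ± 1.62 in EV and 11.1 ± 8.39 CPM in EHF+CDX1 cells (edgeR adjusted p = 0.18). The ELF3 region, chr1:202056979-202057129, was at 7.09 ± 3.15 and 3.97 ± 1.73 CPM (edgeR adjusted p = 0.594). Against EHF cells, regions nearest to TFCP2L1 and HNF4G were higher (chr2:121211253-121211403 and chr8:75976564-75976714, edgeR adjusted p = 0.0167 and 0.035), and a region nearest to KLF4, chr9:108001152-108001302, was lower (edgeR adjusted p = 0.0465).

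Of 16 Wnt and stem genes, 6 were nearest to 26 regions, none called against EV, with a median log2 fold change of -0.09. SOX9 had 11 of the 26. The highest, chr17:71424163-71424495, was at 12.9 ± 2.72 CPM in EV and 9.47 ± 1.09 in EHF+CDX1 cells (SD, n = 3 each, edgeR adjusted p = 0.544). OLFM4, a stem cell marker of the crypt, had 7, of which chr13:52968173-52968323 was at 5.87 ± 1.58 and 5.79 ± 2.999 CPM, a difference of no stable sign. Another OLFM4 region, chr13:53010844-53010994, 17.8 kb from the start, held 1, 2 and 0 counts in CDX1 and 4, 48 and 4 in EHF+CDX1 libraries and was higher against CDX1 (edgeR adjusted p = 0.0459). Against EHF cells, chr13:54394472-54394622 beyond OLFM4 and chr1:214050794-214050944 near PROX1 were higher (edgeR adjusted p = 0.0275 and 0.0141). The highest regions near TCF7L2, the Wnt effector, and SMOC2 were chr10:113326310-113326460, at 6.88 ± 4.21 and 2.26 ± 1.07 CPM (edgeR adjusted p = 0.0871), and chr6:168884720-168884870, at 4.71 ± 1.36 and 3.67 ± 1.24 CPM (edgeR adjusted p = 0.878).

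Genes of AP-1 and of adhesion had few far intergenic neighbours. Of 10 AP-1 genes FOSL2 alone was nearest to any, with 2 regions, and of 12 adhesion and keratin genes CLDN1 and KRT18 had 1 each. None of the 4 was called in any comparison. At chr2:28378088-28378238, 14.2 kb from FOSL2, the EV libraries held 0, 4 and 0 counts and the EHF+CDX1 libraries 6, 25 and 2. The CLDN1 region, chr3:190265810-190265960, was at 0.826 ± 0.730 CPM in EV and 5.49 ± 2.37 in EHF+CDX1 cells (SD, n = 3 each, edgeR adjusted p = 0.124), and the KRT18 region, chr12:52970173-52970323, at 0.461 ± 0.798 and 2.80 ± 1.87 CPM (edgeR adjusted p = 0.331).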

How the data were processed

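The 12 ATAC-seq libraries of HCT116 lines were prepared with Tn5 and sequenced as paired reads. The authors aligned reads with Subread 2.0.0 to hg38, called regions with HOMER 4.7, merged them over samples and counted reads per region with featureCounts 2.0.0, per the submitters' processing notes and the study's methods. The deposited counts are raw whole numbers. The deposited log2 CPM values were made by the authors with limma for 27827 regions, which are those with at least 3 CPM in at least 2 libraries. They were recomputed from the counts to within 4.97e-14, so no quantile normalisation is visible in them. No column was left unused (0).

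All 30170 regions were annotated with GENCODE release 44. Mitochondrial matches were found with blastn 2.17.0 (at least 40 bases at 80% identity), and 31-base words were counted over hg38. Regions with at least 3 CPM in at least 1 library (30154), taken over total counts without TMM scaling, were kept. They were fitted together with edgeR 4.0.16 (TMM, robust quasi-likelihood, 4 groups, no covariate) in R 4.3.3. P-values were adjusted by Benjamini-Hochberg over all of them at 0.05. Standard errors were approximated from the F statistic. The scripts were tested on simulated data. Alternatives used limma 3.58.1 and DESeq2 1.42.0. Tables and figures were made with Python 3.11.15, pandas 2.3.3, pysam 0.24.0 and matplotlib 3.10.9.

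Depth was 148300 to 912672 usable counts per library, and 3 counts, the floor used for regions at 0, equalled 0.677 to 4.51 CPM. Floors cover counting error only. Regions were named as the 8 highest in mean CPM outside mitochondrial matches, the 10 highest and 10 lowest called changes against EV among regions whose groups did not overlap and that held 20 counts or more, the 5 largest called changes each way elsewhere, and the highest region of each listed gene for up to 4 genes a list. The 13 regions called without the deepest library, other called regions near listed genes and the seventh interaction region were named after their values were seen. The members and lists were chosen with earlier results of these data known.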

Additional observations from a re-analysis of the deposited data

Results flagged for a closer look

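In 7 far intergenic regions (0.136%, against 0.123% of all regions, so near the background) the change brought by both factors together differed from the single changes added, by the interaction test in edgeR. The adjusted p was 0.0124 at chr6:61322946-61323119 and 0.0124 at chr13:69018322-69018472, where the EHF+CDX1 libraries held 10, 82 and 4 counts and the 9 other libraries 0 to 3. It was 0.0145 at chr2:84104225-84104393 and 0.0413 at chr7:121714708-121714858. At chr13:80235299-80235449, 104.2 kb from SPRY2, a signalling inhibitor gene, it was 0.0458, with 1, 2 and 3 counts in EV and 5, 41 and 1 in EHF+CDX1 libraries. At chr2:126736649-126736799, 80.5 kb from GYPC, it was 0.0461, with 2, 2 and 1 counts in EV and 9, 39 and 8 in EHF+CDX1 libraries. The 1 negative interaction, at chr17:71473296-71473461, had an adjusted p of 0.0487. None of the 7 was called when EHF+CDX1 replicate 2 was left out.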

How the results depend on the processing

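The number of far intergenic regions called depended on the scaling, the tool and single libraries. Against EV (218) it was 10 with library size alone, 20 with DESeq2 and 2 with limma-trend on the deposited log2 CPM. Against EHF (381) these were 141 (141 higher and 0 lower), 44 and 3, and against CDX1 (234) they were 103 (103 higher and 0 lower), 23 and 4. For the interaction (7) they were 11, 1 and 0, and it was 3 without the robust option. Leaving out each library gave 13 to 327 against EV, 19 to 605 against EHF, 12 to 384 against CDX1, 0 to 3 for EHF against EV, 0 for CDX1 against EV and 0 to 16 for the interaction. The interaction gave 1 each without EV replicates 1 and 3 and EHF replicate 2, 11 without EV replicate 2, 4 each without EHF replicate 1 and CDX1 replicates 1 and 2, and, of EHF+CDX1, 0 without replicate 2 and 16 without replicate 3. EHF against EV gave 1 without EHF replicate 1 and 3 without EHF replicate 2. The cause of these changes was not tested.

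Other settings stayed within 1.5 times of each count against EV, EHF and CDX1. These were RLE scaling (221, 417 and 249), limma voom after quantile normalisation (185, 290 and 267), no filter (221, 381 and 237), no robust option (183, 323 and 206), leaving out exon and mitochondrial regions (215, 414 and 248) and, both chosen after seeing the data, scaling within each chromosome (191, 339 and 209) and 3 CPM in at least 2 libraries (173, 273 and 184). The last 2 gave 3 interaction calls each. Higher calls made up 77.1%, 91.1% and 86.3%, and 78.9%, 77.6% and 70.8% under voom. Against EV the calls with library size alone were 9 higher and 1 lower, with DESeq2 13 and 7, and with the deposited values 1 and 1.

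With the replicate number as a replicate block there were 483 calls against EV (249 higher and 234 lower), 476 against EHF, 328 against CDX1, 38 for EHF against EV (all lower), 0 for CDX1 against EV and 52 for the interaction (42 positive and 10 negative). The numbers were not taken to pair the libraries, since correlations of deviations within the 18 same-number pairs ranged from -0.0141 to 0.305 (other numbers -0.173 to 0.0622). All 12 libraries correlated best with one of their own number. The serial numbers in the sample titles also run through all lines of a replicate number before the next. Both are hints only, and no label says that libraries of the same number were made together.

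The difference in share of counts (-6.01 points) was -2.24 with all counts as the denominator and -8.16 to -4.85 with a library left out. Among 88 named values, 167 of 967 results under other settings and 140 of 1056 with a library left out lost their call. The sign turned under voom at chr20:28495428-28495595 (0.18), chr11:53986973-53987126 (0.18), chr16:38276272-38276465 (0.091) and chr17:40903683-40903833 (-0.18). At chr11:34685353-34685516 leaving out a library gave -0.79 to 0.027. At chr13:52968173-52968323 it gave -0.36 to 0.32, and voom gave -0.18, the deposited values -0.39 and scaling by chromosome -0.60. Depth limits what can be seen: a region at 0 in EV could hold up to 3 counts per library, and the median unique region held 1 to 8 counts outside the deepest library.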
